A study of Rattus norvegicus with 24 samples.

Results

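The comparison is between 4 male Fisher 344 (F344) rats given a single dose of 5 mg/kg D-serine, the lowest dose of a dose series, and 4 rats given vehicle. The arrays were taken by the dose in their labels, and they are 8 of the 24 arrays of the series, in which 4 rats per group received vehicle or 5, 20, 50, 200 or 500 mg/kg. All rats were 11 to 12 weeks old at treatment and were killed 96 h after it. RNA of a small piece of forebrain from each rat was hybridised to 1 Affymetrix rat expression array, so replicates are separate animals, and nothing pairs a treated rat with a control. How the piece was dissected and in which order rats were handled is not analysed here; by their animal numbers the vehicle rats come first and the 5 mg/kg rats last, with the other doses between them from high to low, so any effect of that order and the dose cannot be told apart.

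D-serine is an amino acid made in the brain from L-serine by serine racemase and broken down by D-amino acid oxidase. It binds the glycine site of the NMDA receptor, a glutamate-gated calcium channel that opens only when both glutamate and a co-agonist (glycine or D-serine) are bound. Calcium entering through it acts on kinases at the postsynaptic density, on immediate-early genes and on synaptic strength, and in rats high doses of D-serine are known to injure the kidney.

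Values are log2(intensity + 16) after quantile normalization of all arrays, called the log2 level here, and a difference is the mean of the 5 mg/kg arrays minus the mean of the vehicle arrays on that scale. A probe set, or the gene it stands for, is said to have risen or fallen where its p from limma, adjusted over the 18625 probe sets kept, was under 0.05. The 8 arrays had median deposited intensities of 56 to 82.9 for vehicle and 69.6 to 79.8 for 5 mg/kg. One array of the series stood apart, 500 mg/kg replicate 4, whose median correlation with the others was 0.916 against 0.964 to 0.974 for the rest. It is in neither group, but it enters the shared estimate of the spread, so counts are also given without it. Among the 8 arrays, vehicle replicate 2 stood apart by high choroid plexus and thalamic markers, and vehicle replicate 4 by high striatal markers. Both are given below, with counts without each. Forebrain markers were present: the striatal marker Pde10a had log2 levels of 9.49 to 11.01 in vehicle and 8.32 to 9.84 at 5 mg/kg, and Gabra6, the defining receptor subunit of cerebellar granule cells, was below the level of the probe sets kept, at 4.40 to 5.57 in vehicle and 5.44 to 5.98 at 5 mg/kg.

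The RNA of both groups differed in its 3' to 5' signal. Affymetrix arrays carry probe sets for the 3' end, the middle and the 5' end of housekeeping transcripts, and since labelling starts at the 3' end, a larger 3' to 5' ratio goes with shorter labelled product. For beta-actin, the log2 ratio was 2.56, 2.30, 2.40 and 2.72 in vehicle and 1.84, 1.80, 1.59 and 1.55 at 5 mg/kg. For Gapdh it was 0.80, 0.68, 0.74 and 0.84 in vehicle and 0.26, 0.22, 0.07 and 0.15 at 5 mg/kg. Every 5 mg/kg array lay below every vehicle array in both. The differences were -0.80 for beta-actin and -0.59 for Gapdh, each with an exact two-sided permutation p of 0.0286, the smallest that 4 against 4 arrays allow, and 0.0429 after adjustment over 3 controls. The hexokinase ratio was 1.76 ± 0.28 (SD, n = 4) in vehicle and 1.49 ± 0.31 at 5 mg/kg, with an exact permutation p of 0.229; its difference of -0.27 was -0.61 with no pseudocount (exact permutation p = 0.0857).

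For beta-actin and Gapdh, the lower ratio came with a higher signal at the 5' end. The 5' probe set was higher at 5 mg/kg by 1.04 for beta-actin and by 0.76 for Gapdh, the middle one by 0.64 and 0.44, and the 3' one by 0.24 and 0.17. Hexokinase, a dimmer control, did not have this order: its 5', middle and 3' probe sets were higher by 1.13, 1.73 and 0.86. The 3' to 5' log2 ratio of the bacterial dap transcript, a control added to the sample, was 0.74 ± 0.17 in vehicle and 0.93 ± 0.09 at 5 mg/kg, and that of the thr transcript was 0.37 ± 0.16 and 0.58 ± 0.11. For phe and lys it was 1.05 ± 0.22 and 0.32 ± 0.34 in vehicle and 1.20 ± 0.46 and 0.51 ± 0.21 at 5 mg/kg. The means of these 4 added controls, looked at after the data had been seen, were thus higher at 5 mg/kg, where those of beta-actin and Gapdh were lower. When the Gapdh ratio of each array was added to the model, 0 probe sets passed in limma (966 at an unadjusted p under 0.05), and with the actin ratio 0 passed as well (1498 unadjusted). The ratios and the groups moved together, so dose and RNA state cannot be told apart, which holds for every difference below.

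**Figure D1:**
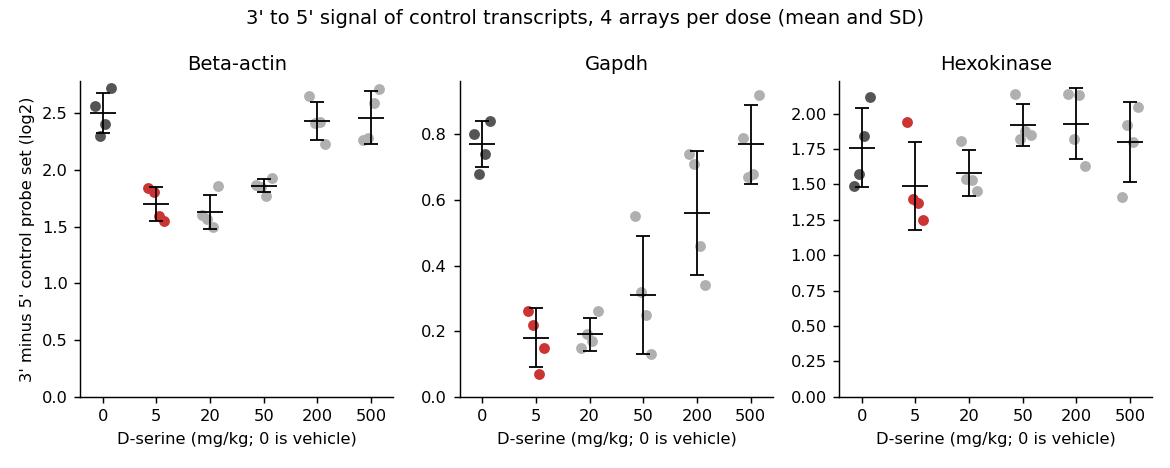
The 3' minus 5' log2 signal of the beta-actin, Gapdh and hexokinase control probe sets on each array, by dose (0 is vehicle); points are arrays, bars the mean and SD of 4 arrays. The 5 mg/kg arrays lie at 1.55 to 1.84 for beta-actin and 0.07 to 0.26 for Gapdh, below all vehicle arrays, while hexokinase overlaps.

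Over the whole array, the differences between 5 mg/kg and vehicle were many and small. Of 18625 probe sets, 1028 differed from vehicle (5.52%), 705 of them higher (3.79%) and 323 lower (1.73%), and 3515 (18.9%) had an unadjusted p under 0.05. With 1 probe set for each of 10205 genes, the brightest, 331 genes passed (3.24%): 187 rose (1.83%) and 144 fell (1.41%). The median gene differed by -0.01, and 95% of genes lay between -0.42 and 0.41. Among the genes that rose the median was 0.43, 113 lay between 0.25 and 0.5, and 6 reached 1 (a 2-fold change); among those that fell the median was -0.42, 95 lay between -0.25 and -0.5, and 0 reached -1. In 297 of the 331 genes, the 4 treated arrays lay wholly on one side of the 4 vehicle arrays, and in 34 they overlapped. Over all 10205 genes, they lay wholly above in 5.64% and wholly below in 5.23%. The 331 genes were chosen by p on these same arrays, so their separation is not separate evidence.

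How many genes fell depended on the scaling, and how many rose much less so. Of the probe sets that passed, 68.6% were higher with quantile normalization, 86.6% with median centring of each array and 99.0% with the intensities as deposited, under which the median of all genes was 0.20 instead of -0.01. Genes that rose numbered 187, 308 and 338 under the 3 scalings, and genes that fell numbered 144, 47 and 3. The 3 that fell under all of them were Col15a1, a basement membrane collagen, Hipk2, a nuclear kinase, and Ston2, an adaptor of vesicle endocytosis. Without 500 mg/kg replicate 4, 347 genes rose and 271 fell, without vehicle replicate 1 98 and 65, and without 5 mg/kg replicate 3 99 and 74. Of the 86 genes named here or in the closing section that passed, 27 of the 50 that rose and 18 of the 36 that fell also passed in each of 24 fits with 1 array left out.

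**Figure D2:**
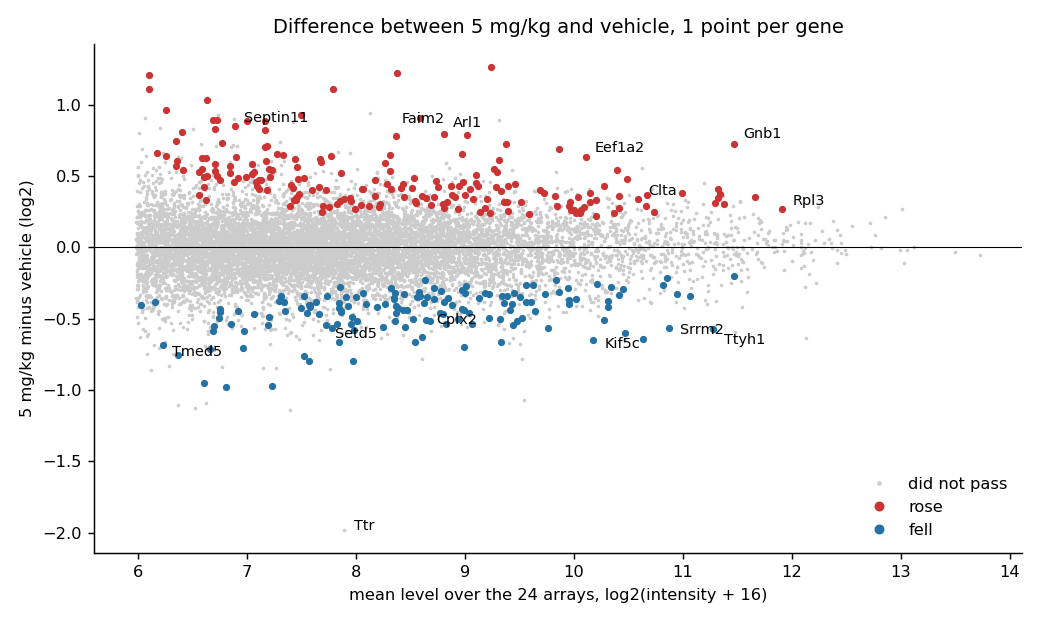
Difference between 5 mg/kg and vehicle (log2) against the mean level over the 24 arrays, 1 point for each of 10205 genes; red points rose, blue fell and grey did not pass. Most of the coloured points lie between 0.25 and 0.5 from 0 on either side, at all levels, and Ttr, at -1.98, did not pass.

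Below the largest changes, genes that rose included several of membrane traffic, nuclear import and cell shape. Septin11, a filament-forming GTPase of dendrite branches and spines, had log2 levels of 6.76, 6.45, 6.15 and 6.26 in vehicle and 7.30, 7.14, 7.34 and 7.23 at 5 mg/kg. The groups did not overlap, and the difference of 0.85 (SE 0.12) was 1.80-fold (limma, adjusted p = 0.000294). Faim2, a membrane protein that inhibits Fas-induced death of neurons, rose from 8.69, 8.61, 8.49 and 8.54 to 9.63, 9.50, 9.23 and 9.14. That is 1.73-fold (adjusted p = 0.000264 in limma), again with all treated arrays above all vehicle arrays. Nt5c2, a cytosolic nucleotidase, rose 1.63-fold, from 6.69 to 6.94 in vehicle to between 7.31 and 7.68. Kpna1, an importin that carries proteins into the nucleus, rose 1.65-fold, and its vehicle arrays (8.90 to 9.20) lay below its treated arrays (9.67 to 9.94), but its other 2 probe sets were at -0.02 and -0.16. Arl1, a GTPase of the Golgi apparatus, had the smallest adjusted p of these, 7.04e-05, and both of its probe sets rose, by 0.79 and 0.36. Lin7c, a scaffold that sorts receptors and channels, rose by 0.75, although 5 mg/kg replicate 1, at 5.98, lay within the vehicle range of 5.79 to 6.04.

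Among the falls outside the largest were genes of cell adhesion, transcription and protein synthesis. Cdh22, a neural cadherin, had log2 levels of 11.13, 11.00, 10.98 and 10.97 in vehicle and 10.27, 10.39, 10.42 and 10.43 at 5 mg/kg. Both sets of 4 were narrow and apart, and the fall of 0.64 was 1.56-fold (limma, adjusted p = 0.00330). Ttyh1, a chloride channel protein of the brain, went from 11.65, 11.36, 11.55 and 11.62 to 11.02, 10.93, 10.97 and 10.97, although its other 3 probe sets, at -0.03, -0.21 and -0.12, did not pass. Med1, a subunit of the Mediator complex that links transcription factors to RNA polymerase, fell by 0.58 from 8.16 to 8.53 in vehicle to 7.55 to 7.96. The second probe sets of Cdh22 and Med1, at -0.21 and -0.11, did not pass. Nudt2, which cleaves dinucleoside polyphosphates, fell by 0.57, Mrpl45, of the mitochondrial ribosome, by 0.41, and Rap1gds1, an exchange factor for small GTPases, by 0.50. All 6 kept an adjusted p under 0.05 with median centring, and none of them did with the values as deposited, where Cdh22 had a difference of -0.40 (adjusted p = 0.206).

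**Figure D3:**
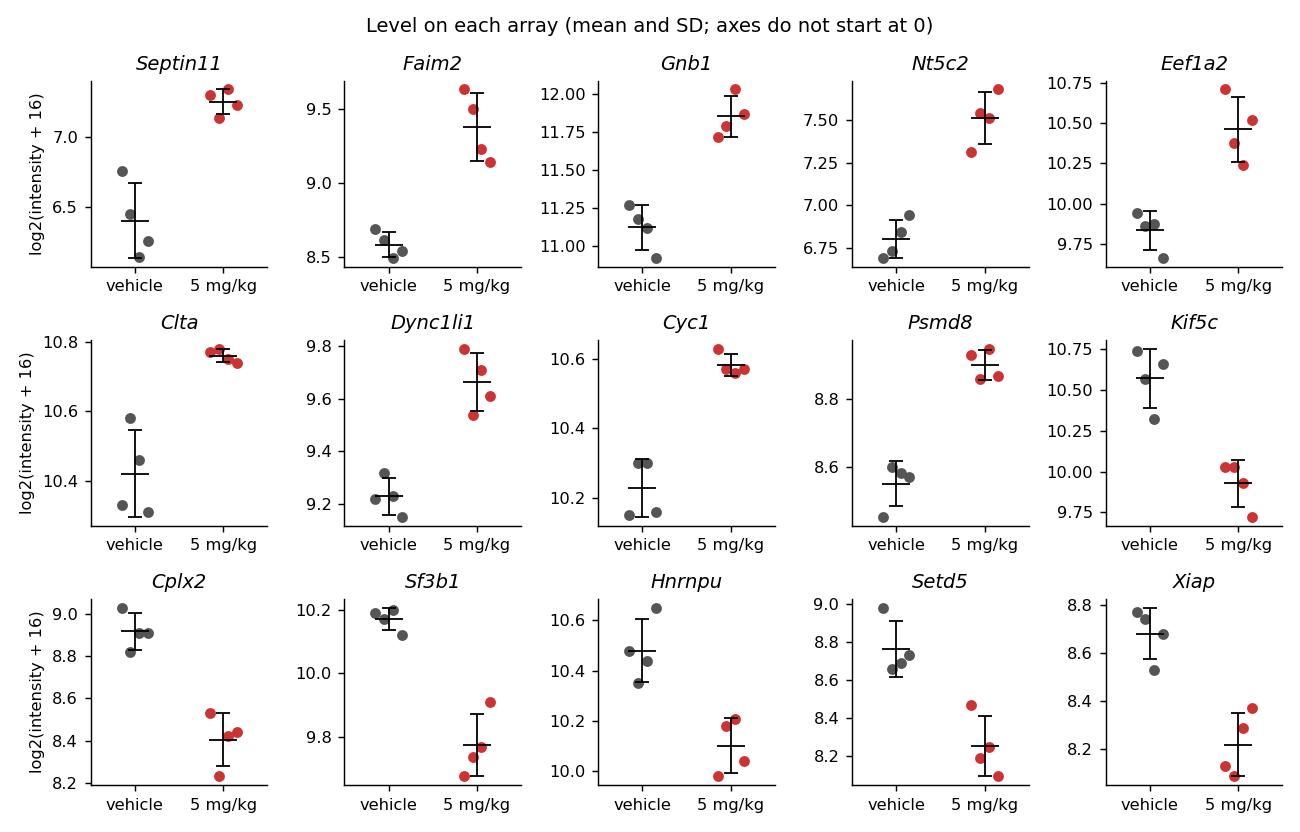
Log2 level of 15 genes that passed, on each of the 4 vehicle arrays (grey) and 4 arrays at 5 mg/kg (red), with the mean and SD; the axes do not start at 0. In each of the 15 panels the groups do not overlap, with Clta at 10.74 to 10.78 and Cyc1 at 10.56 to 10.63 among the tightest treated groups.

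Few genes of the receptor that D-serine binds, and none of those measured for its handling, passed. As 1.83% of all genes rose and 1.41% fell, lists this short would often hold no call. In a list of 8 NMDA receptor genes, 6 were above the level kept, 0 rose and 1 fell, with a median of -0.14 beside -0.01 for all genes; the median was 0.06 with the values as deposited. The one that fell was Grina, whose product is an NMDA receptor-associated membrane protein and not a channel subunit. Its log2 levels were 10.93, 10.95, 10.85 and 10.98 in vehicle and 10.64, 10.68, 10.64 and 10.69 at 5 mg/kg. The fall of 0.27 (SE 0.07, adjusted p = 0.0271 in limma) was lost with median centring (-0.14, adjusted p = 0.432) and in 6 of 24 fits with 1 array left out, with an adjusted p of up to 0.0748, without vehicle replicate 4. The values as deposited gave 0.00.

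Grin2a, the subunit typical of mature synapses, had log2 levels of 9.58, 9.66, 9.64 and 9.78 in vehicle and 9.25, 9.17, 9.16 and 8.80 at 5 mg/kg. All treated arrays were lower, yet the difference of -0.57 (SE 0.20) did not pass (adjusted p = 0.112 in limma), and its other probe sets were at -0.01 and 0.08. Grin1, the obligatory subunit that carries the D-serine site, was 8.72, 9.03, 9.31 and 8.78 in vehicle and 9.02, 9.01, 9.27 and 8.98 at 5 mg/kg, and Grin2b was 7.05 to 7.37 and 7.26 to 7.48. In both the groups overlapped, with differences of 0.11 and 0.14, and their second probe sets were at -0.37 and -0.01. Grin2d and Grin3b were below the level kept.

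Among 11 measured genes of D-serine and glycine synthesis, transport and breakdown, 0 rose and 0 fell, beside 1.83% and 1.41% of all genes. In none were the groups apart, beside 5.64% of all genes with all treated arrays above and 5.23% with all below. The median was -0.11. Phgdh, the first enzyme of serine synthesis, differed by 0.05 (SE 0.13), and Slc1a4, which exchanges serine across the membrane, by -0.08 (SE 0.22). Slc7a10, the neuronal transporter of glycine and D-serine, was 7.09 to 7.44 in vehicle and 6.70 to 7.14 at 5 mg/kg (-0.29, adjusted p = 0.278 in limma). Gldc, of the glycine cleavage system, was 7.11 to 7.41 and 7.28 to 7.72 (0.27, adjusted p = 0.425). Dao, the D-amino acid oxidase gene, stood at the floor of the array, at 4.05 to 4.13 in vehicle and 4.04 to 4.23 at 5 mg/kg. Srr, the serine racemase gene, had no probe set assigned to it alone, so it was not measured.

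Other glutamate and GABA receptor genes gave a few single rises, beside 1.83% that rose over all genes. Of 17 AMPA receptor subunits and partners, 1 rose, the assembly factor Frrs1l (0.89, 1.86-fold), from 6.13 to 6.30 in vehicle to 6.89 to 7.37. Of 5 metabotropic glutamate receptors, 1 rose, the presynaptic Grm7 (0.63, adjusted p = 0.0393 in limma), from 6.04, 6.57, 6.31 and 6.07 to 6.74, 7.01, 6.82 and 6.93. The call on Grm7 was lost in 7 of 24 fits with 1 array left out, with an adjusted p of up to 0.123 without vehicle replicate 1. Of 6 kainate receptor genes, 0 passed; the auxiliary subunit Neto2 differed by 0.52 (adjusted p = 0.0518). Of 8 GABA-A receptor subunits, 0 passed, with a median of 0.25. Gabra3 was 6.58, 5.42, 6.87 and 6.17 in vehicle and 6.98, 7.35, 7.40 and 7.03 at 5 mg/kg, so it was higher on all treated arrays, by 0.93 (adjusted p = 0.0733). Gabbr2, a GABA-B receptor subunit, was split between its probe sets, at -0.37 (adjusted p = 0.124) for the brightest and 1.01 (adjusted p = 0.00552) for the dimmest.

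In the signalling that follows the receptor, few genes passed, beside 1.83% that rose and 1.41% that fell over all genes. Of 18 postsynaptic density scaffolds, 14 had a difference below 0 (the list's median of -0.06 turned to 0.05 with median centring), and 1 passed, upward. This was Dlg2, which encodes PSD-93, at 5.85, 5.84, 5.80 and 6.16 in vehicle and 6.46, 6.42, 6.49 and 6.83 at 5 mg/kg (0.64, 1.56-fold). Of 17 calcium-dependent kinases and phosphatases, 0 rose and 1 fell, Camk2b, a subunit of calcium/calmodulin kinase II. Its fall of 0.22 (adjusted p = 0.0483 in limma) had overlapping groups, turned to 0.06 with the values as deposited and was lost in 17 of 24 fits with 1 array left out (adjusted p up to 0.160). Of 10 genes of the Ras and MAP kinase pathway, 1 rose, Rasgrp1, a calcium-activated exchange factor for Ras. Its 2 probe sets were at 1.22 and 0.95. The first was 7.71 to 8.04 in vehicle and 8.92 to 9.26 at 5 mg/kg. It lost its call without any 1 of the 8 arrays (adjusted p up to 0.100 in limma), but with the 8 arrays alone its adjusted p was 0.000562.

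No immediate-early gene, a class induced by neuronal firing, rose at 96 h after the dose. Of 21 measured, 0 rose and 1 fell, beside 1.83% and 1.41% of all genes, with a median of 0.07. At these shares a list of this size would often hold no rise. The one that fell was Jund, at 10.63, 10.61, 10.46 and 10.70 in vehicle and 10.18, 10.20, 10.26 and 10.44 at 5 mg/kg. Its fall of 0.33 (adjusted p = 0.0391 in limma) was lost in 6 of 24 fits with 1 array left out and with median centring (-0.22, adjusted p = 0.257). Bdnf, the neurotrophin gene that activity induces, was 6.46 to 7.44 in vehicle and 6.60 to 7.84 at 5 mg/kg. Of 6 neurotrophin and receptor genes, 0 passed, although a dimmer probe set of Ntrk2 fell by 0.55 (adjusted p = 0.0183 in limma). The other probe sets of Ntrk2, from -0.46 to 0.73, did not pass. Gnb1, the beta 1 subunit of heterotrimeric G proteins, was split between its probe sets. Its brightest went from 11.27, 11.18, 11.12 and 10.92 to 11.72, 11.79, 12.03 and 11.87, while another fell.

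Several genes of transmitter release and vesicle recovery passed, most of them upward. Of 26 synaptic vesicle and SNARE genes, 3 rose and 1 fell, and of 21 genes of vesicle endocytosis, 3 rose and 1 fell, beside 1.83% and 1.41% of all genes; both lists had a median of 0.13. On the release side, Syt1, the calcium sensor of fast release, and Svop, a vesicle membrane protein, rose by 1.26 and 1.11. Syt11, a synaptotagmin that does not bind calcium, rose by 0.55 with vehicle replicate 3, at 7.49, inside the treated range of 7.47 to 7.67. Cplx2, a complexin that clamps SNARE complexes until calcium arrives, moved the other way: 9.03, 8.82, 8.91 and 8.91 in vehicle and 8.53, 8.23, 8.42 and 8.44 at 5 mg/kg. Its fall of 0.51 (SE 0.11, adjusted p = 0.00588 in limma) held in all 24 fits with 1 array left out and with median centring (-0.41, adjusted p = 0.0359), but not with the values as deposited (-0.27, adjusted p = 0.371).

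On the recovery side, the clathrin light chain gene Clta rose from 10.33, 10.58, 10.46 and 10.31 to 10.77, 10.78, 10.75 and 10.74 (0.34, SE 0.06, adjusted p = 0.00194 in limma). The 4 treated arrays spanned less than the vehicle arrays did, and none overlapped. Amph, an amphiphysin that recruits dynamin, rose from 8.30, 7.83, 8.16 and 7.59 to 8.79, 8.95, 8.72 and 8.52 (0.78), and its call was lost only without vehicle replicate 4 among the 24 fits (adjusted p = 0.0547). Sh3gl2, which encodes endophilin A1, rose by 0.93, from 6.51 to 7.10 in vehicle to 7.50 to 8.06. Ston2 fell by 0.95, with vehicle replicate 3 low at 6.55 beside 7.27 to 7.33. Of 29 Rab GTPases, which steer vesicles between compartments, 0 rose and 1 fell, beside 1.83% and 1.41% of all genes. The one that fell was Rab4a of recycling endosomes (-0.31, adjusted p = 0.0201 in limma), and 4 of 24 fits lost it.

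Among motor proteins, the kinesin genes that passed fell by their brightest probe sets, and the dynein genes that passed rose. Most kinesins carry cargo outward along axons and dynein carries it back. Of 14 kinesins, 0 rose and 2 fell, and of 14 dynein and dynactin genes, 3 rose and 0 fell. The shares over all genes were 1.83% and 1.41%. The medians were -0.03 and 0.06, and whether the families differ was not tested. With median centring the same counts passed; with the values as deposited 0 kinesins fell and 2 dynein genes rose. Kif5c, a heavy chain of conventional kinesin, was 10.74, 10.57, 10.32 and 10.66 in vehicle and 10.03, 10.03, 9.93 and 9.72 at 5 mg/kg by its brightest probe set. That is a fall of 0.65 (SE 0.11, adjusted p = 0.000963 in limma). A dimmer probe set of Kif5c went the other way, rising by 1.10 (adjusted p = 0.000368 in limma), so its direction depends on the probe set. Kif1a, which carries synaptic vesicle precursors, fell by 0.76, from 7.78 to 8.40 to between 6.96 and 7.76; without vehicle replicate 1 its adjusted p was 0.0593, and its other probe set was at 0.23. Dync1li1, a light intermediate chain of cytoplasmic dynein, rose from 9.22, 9.32, 9.23 and 9.15 to 9.79, 9.54, 9.71 and 9.61 (0.43, adjusted p = 0.00320), with all treated arrays above. Pafah1b1, the dynein regulator Lis1, rose by 0.61 (adjusted p = 0.0105; 0.0515 without vehicle replicate 1), and Dctn5 by 0.24 (18 of 24 fits lost it).

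Few cytoskeletal genes and no channel gene passed, beside 1.83% that rose and 1.41% that fell over all genes. Of 28 actin regulators, 1 rose and 1 fell. The first was Fscn1, the actin-bundling fascin (1.03, 2.04-fold), from 5.75 to 6.27 in vehicle to 6.80 to 7.30. The second was Abi1, of the WAVE complex (-0.45, adjusted p = 0.0105 in limma), with its other probe set at -0.05. The fall of Abi1 did not pass with median centring (-0.33, adjusted p = 0.0685) or with the values as deposited (-0.20, adjusted p = 0.541). Of 22 tubulins and microtubule-associated proteins, 0 passed, although Mapt (tau) was lower on all treated arrays, at 11.14 to 11.24 against 11.35 to 11.40 (-0.19, adjusted p = 0.0658), with its other probe sets at 0.03 and 0.08. Of 10 spectrins, ankyrins and related genes, 33 potassium channels, and 22 sodium and calcium channels, 0 passed. Their medians were -0.03, 0.03 and 0.03. In the spectrin list, a dimmer probe set of Add1 rose by 0.74 (adjusted p = 0.00493 in limma), beside 0.27 for its brightest. Among the potassium channels Kcnj9 had the largest difference named, 0.64 (adjusted p = 0.136), with vehicle replicate 3 low at 4.84 beside 5.95 to 6.04. Of 13 sodium and calcium pumps, 12 had a difference below 0, with a median of -0.10 that became 0.13 with the values as deposited, and 0 passed.

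The few genes of energy metabolism that passed mostly rose, by small amounts. In the tricarboxylic acid cycle, 3 of 18 genes rose and 0 fell, beside 1.83% and 1.41% of all genes. Of the 18, 15 were above 0, and in 8 all treated arrays lay above all vehicle arrays, beside 5.64% of all genes. The median of this list was 0.14. Ogdh and Dld, which encode subunits of the 2-oxoglutarate dehydrogenase complex, rose by 0.24 and 0.26, and Sdha, of succinate dehydrogenase, by 0.28. Ogdh was 9.89, 10.10, 9.98 and 9.90 in vehicle and 10.16, 10.18, 10.26 and 10.21 at 5 mg/kg; its call was lost in 2 of 24 fits, that of Dld in 7 and that of Sdha in 1, with adjusted p of up to 0.0583, 0.0765 and 0.0577. Cyc1, the cytochrome c1 of complex III, rose from 10.15, 10.30, 10.30 and 10.16 to 10.63, 10.57, 10.56 and 10.57 (0.36, adjusted p = 0.00588 in limma), in all fits with 1 array left out. The groups were apart by more than the range of the treated arrays.

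The remaining respiratory genes were mixed, and their counts stand beside 1.83% that rose and 1.41% that fell over all genes. Of 34 complex I subunits, 1 rose (Ndufa8, 0.25) and 1 fell (Ndufb9, -0.20), and the median was 0.01. Ndufb9 was 11.48 to 11.63 in vehicle and 11.34 to 11.42 at 5 mg/kg, and its difference was 0.05 with the values as deposited. Of 14 ATP synthase subunits, 2 rose, Atp5f1a (0.38) and Atp5pb (0.37), and of 14 glycolytic genes 2 rose, Tpi1 (11.39 to 11.56 in vehicle, 11.76 to 11.85 at 5 mg/kg) and Eno1, which had overlapping groups and an adjusted p of up to 0.114 with 1 array left out. Of 17 subunits of the V-ATPase, the proton pump that acidifies vesicles and lysosomes, 16 were above 0. In 5 all treated arrays lay above all vehicle arrays, beside 5.64% of all genes. Only Atp6v0e2 passed (0.38, adjusted p = 0.0261 in limma), and it lost its call in 5 of 24 fits. The mean level of the V-ATPase list was 10.23, 10.35, 10.39 and 10.24 in vehicle and 10.54, 10.48, 10.49 and 10.46 at 5 mg/kg. Dnm1l, the dynamin-related protein that divides mitochondria, rose by both of its probe sets, the brighter from 8.49, 8.48, 8.59 and 8.68 to 9.22, 9.34, 9.23 and 9.04, and the dimmer by 0.68; it was the 1 gene to pass of 18 for mitochondrial fission, fusion and import.

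**Figure D4:**
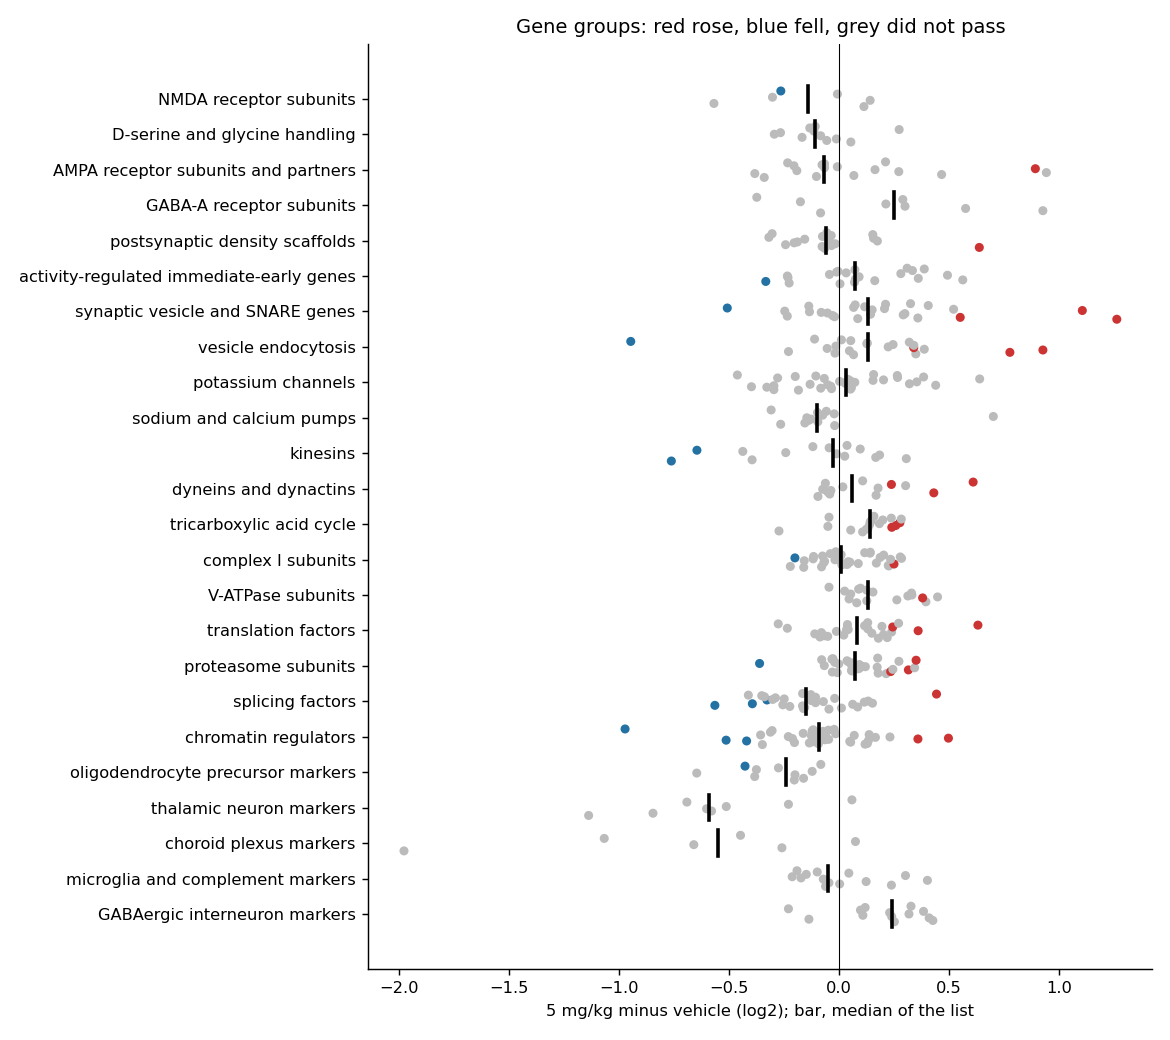
Difference between 5 mg/kg and vehicle (log2) of each measured member of 24 gene groups, with the group's median as a bar; red members rose, blue fell and grey did not pass. Passing members are few in every group, and the medians lie between -0.59 for thalamic neuron markers and 0.25 for GABA-A receptor subunits.

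A few genes of protein synthesis and breakdown passed, beside 1.83% that rose and 1.41% that fell over all genes. Of 26 translation factors, 3 rose and 0 fell, with a median of 0.08. Eef1a2, the neuronal form of elongation factor 1A, stood out: 9.94, 9.86, 9.87 and 9.66 in vehicle and 10.71, 10.38, 10.24 and 10.52 at 5 mg/kg. The rise of 0.63 (SE 0.09) was 1.55-fold (limma, adjusted p = 0.000394), with no overlap. The initiation factor genes Eif4a1 and Eif4h rose by 0.36 and 0.24, and lost their calls in 4 and 7 of 24 fits. A dimmer probe set of Eif4h rose by 1.61 (adjusted p = 0.00712 in limma). Of 32 cytosolic ribosomal protein genes, 2 rose, Rpl3 (11.71 to 11.89 in vehicle, 11.99 to 12.17 at 5 mg/kg) and Rpl6 (11.17 to 11.29 and 11.46 to 11.65), with a list median of 0.03; a second probe set of Rpl3 was at -0.48 and did not pass. Ribosomal protein genes have many processed copies in the genome, so probes of these genes may also bind related sequences. Eprs1, a transfer RNA synthetase, had 1 probe set that fell and 1 that rose.

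Of 30 proteasome subunits, 3 rose and 1 fell, with a median of 0.07. For this list and the chaperones below, the shares over all genes were 1.83% that rose and 1.41% that fell. Psmd8, of the regulatory lid, was 8.45, 8.60, 8.58 and 8.57 in vehicle and 8.93, 8.86, 8.95 and 8.87 at 5 mg/kg (0.35, adjusted p = 0.00893 in limma). Psmb1 and Psma5, of the catalytic core, rose by 0.31 and 0.23, and Psmd1 fell by 0.36 with overlapping groups (20 of 24 fits lost the call). Skp1, of the SCF ubiquitin ligases, rose from 11.06 to 11.23 to between 11.43 and 11.53. Ubqln2, a shuttle that brings tagged proteins to the proteasome, fell by 0.33 (6 of 24 fits lost it). Of 31 chaperones, 2 rose, Dnajc5, the cysteine-string protein of synaptic vesicles (0.22), and Hspa9 of mitochondria (0.28), and 1 fell, Hspb1 (-0.76). These calls were lost in 5, 14 and 15 of 24 fits, and a second probe set of Hspa9 was at -0.18. Of the dimmer probe sets of Dnajc5, 1 rose by 0.67 (adjusted p = 0.000303 in limma) and the other, at 0.16, did not pass.

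In lists of nuclear genes, the balance of falls and rises depended on the scaling. Of 30 splicing factors, 3 fell and 1 rose, beside 1.41% and 1.83% of all genes. A difference below 0 was seen in 23, and in 8 all treated arrays lay below all vehicle arrays, beside 5.23% of all genes. With median centring 1 fell and 1 rose, and with the values as deposited 0 fell and 1 rose. The splicing median was -0.15, but -0.04 with median centring and 0.10 with the values as deposited, where the median of all genes was 0.20. Sf3b1, the core subunit of the U2 particle that binds the branch point, was 10.19, 10.17, 10.20 and 10.12 in vehicle and 9.68, 9.74, 9.77 and 9.91 at 5 mg/kg. The fall was 0.39 (SE 0.09, adjusted p = 0.0144 in limma), and 2 of its 3 probe sets fell; with median centring it was -0.28 (adjusted p = 0.0910). Srrm2, a scaffold of nuclear speckles, went from 11.48, 11.24, 11.17 and 11.18 to 10.73, 10.62, 10.70 and 10.77 (second probe set -0.18), and Luc7l2 fell by 0.33 (12 of 24 fits lost it). Ddx17, an RNA helicase, rose by 0.44 with overlapping groups.

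Of 24 heterogeneous nuclear ribonucleoproteins and neuronal RNA-binding proteins, 2 fell and 1 rose, but 0 fell and 2 rose with median centring. Over all genes, 1.41% fell and 1.83% rose. Hnrnpu, which binds chromatin-associated RNA, was 10.48, 10.35, 10.44 and 10.65 in vehicle and 9.98, 10.18, 10.21 and 10.04 at 5 mg/kg (-0.38, adjusted p = 0.0234 in limma); its other probe sets, at -0.18 and -0.36, did not pass, and its call was lost in 4 of 24 fits. Hnrnpl fell by 0.28 (20 of 24 fits lost it), and Hnrnpa3 rose by 0.24. The dimmest probe set of Hnrnpa3 rose by 0.69 (adjusted p = 0.00137 in limma), and its remaining ones, from 0.18 to 0.24, did not pass. Of 40 chromatin regulators, 3 fell and 2 rose, 29 were below 0, and the median of -0.09 turned to 0.13 with the values as deposited; with median centring 2 fell and 2 rose, and as deposited 1 fell and 2 rose. Setd5, which carries a SET domain, was 8.98, 8.66, 8.69 and 8.73 in vehicle and 8.47, 8.19, 8.25 and 8.10 at 5 mg/kg by its brightest probe set, while its others were at -0.01 and 0.01. Hipk2 fell by 0.97, and Kmt2e, named after its value was seen, by 0.42 (16 of 24 fits lost it). The histone deacetylase gene Hdac1 rose from 6.22 to 6.81 to between 6.91 and 7.02, and Crebbp, a histone acetyltransferase that CREB recruits, by 0.36, with its other probe sets at -0.01 and -0.15; without vehicle replicate 4 the adjusted p of Hdac1 was 0.0505, and Crebbp lost its call in 4 of 24 fits.

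Stress and hormone lists held few genes that passed, beside 1.83% that rose and 1.41% that fell over all genes. None of 14 interferon-induced genes, 14 glucocorticoid-responsive genes, 15 circadian clock genes, 16 genes of cholesterol synthesis and uptake, or 10 of hypoxia and glucose supply passed, and their medians lay between -0.12 and 0.07. The clock genes Bhlhe40 and Hlf had differences of 0.72 (adjusted p = 0.106) and -0.59 (adjusted p = 0.215), and the interferon-induced Isg15 one of -0.52 (adjusted p = 0.286 in limma). Of 25 NRF2 and antioxidant genes, 1 rose, the peroxiredoxin gene Prdx5 (0.29; 5 of 24 fits lost it). Of 16 apoptosis genes, 0 rose and 1 fell, Xiap, an inhibitor of caspases. It was 8.77, 8.74, 8.53 and 8.68 in vehicle and 8.13, 8.09, 8.29 and 8.37 at 5 mg/kg (-0.46, SE 0.08, adjusted p = 0.00199 in limma), and its second probe set was at 0.38.

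Cell type markers were read beside these changes, since in bulk tissue fewer cells of a type and less RNA per cell cannot be told apart. None of 13 markers of myelinating oligodendrocytes passed, but all 13 were below 0, with a median of -0.44; the list's mean level was 9.23, 10.42, 9.51 and 10.30 in vehicle and 9.26, 9.56, 9.54 and 9.43 at 5 mg/kg. The treated arrays thus lay inside the vehicle range. The dimmest probe set of Mbp fell by 0.75 (adjusted p = 0.0344 in limma), while its brighter ones, at -0.11 and -0.36, did not pass. All 10 markers of oligodendrocyte precursors were below 0 too, and 1 passed, Tnr, a matrix protein of perineuronal nets (-0.43, 5 of 24 fits lost it). None passed among 15 resting astrocyte markers, 14 of microglia and complement, 15 of endothelium and 12 of smooth muscle and pericytes. Their medians lay between -0.16 and -0.03, and over all genes 1.83% rose and 1.41% fell. A dimmer probe set of the astrocyte marker Slc1a3 rose by 0.89 with overlapping groups (adjusted p = 0.0108 in limma), beside 0.23 for its brightest. Of 13 interneuron markers, 11 were above 0 with a median of 0.24, and 0 passed; Gad2, a GABA-synthesizing enzyme, was 7.12 to 7.84 in vehicle and 7.48 to 8.59 at 5 mg/kg. Of 5 reactive astrocyte markers and 24 meningeal and collagen genes, 1 each fell, Hspb1 and Col15a1, with medians of -0.49 and -0.22. In the lists of pan-neuronal and of excitatory neuron markers, Syt1 and Tbr1 rose and Rorb fell, with medians of -0.09 and 0.00.

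Vehicle replicate 2 had high levels of choroid plexus and thalamic markers. Ttr, the transthyretin of choroid plexus, was 6.71, 13.09, 6.42 and 7.84 in vehicle and 6.30 to 6.85 at 5 mg/kg. Slc17a6, the glutamate transporter of thalamic neurons, was 7.38, 10.33, 7.44 and 7.30 in vehicle and 6.38 to 7.49 at 5 mg/kg. Neither gene passed, at -1.98 and -1.14. The mean level of 8 thalamic markers was 8.96 on that array against 7.01 to 7.23 on the other vehicle arrays and 6.85 to 7.19 at 5 mg/kg, and that of 6 choroid plexus markers was 9.23 against 6.87 to 7.34 and 6.86 to 6.99. Without this array the median differences of the lists went from -0.59 to -0.14 for thalamic, from -0.55 to -0.22 for choroid plexus and from -0.44 to -0.24 for myelin markers. Without it, 140 genes rose and 76 fell. The mean of 15 striatal markers was 9.33 on vehicle replicate 4, against 8.02 to 8.15 on the other vehicle arrays and 7.37 to 9.10 at 5 mg/kg. Without vehicle replicate 4, 123 genes rose and 91 fell. The part of these markers in the other results was not tested.

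Probe sets of one gene often differed in their calls. Among 7581 probe sets that were the only one of their gene, 1.81% were higher at 5 mg/kg and 0.963% lower. Among the brightest probe sets of 2624 genes with several, 1.91% were higher and 2.71% lower. Among the 3459 dimmer probe sets of the same genes, 11.3% were higher and 1.85% lower. Within 1 range of brightness, log2 levels from 6.46 to 7.78, the shares higher in the 3 classes were 1.71%, 1.35% and 11.4%. Of the 705 probe sets that were higher, 390 were thus dimmer probe sets of a gene that has a brighter one.

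The same was seen without any test within each array. The median over the 2624 genes of the dimmest minus the brightest probe set was -1.30, -1.28, -1.27 and -1.27 in vehicle and -1.16, -1.09, -1.12 and -1.14 at 5 mg/kg. The groups did not overlap, and the means of the other doses were -1.11, -1.17, -1.23 and -1.25 at 20, 50, 200 and 500 mg/kg. In 1787 of the 2624 genes (68.1%), the dimmest probe set had the higher difference, with a median gap of 0.14; the gap was over 0.5 in 339 genes and under -0.5 in 63. The beta-actin and Gapdh 3' to 5' ratios, given above, had the same split between these groups, and their part in this was not tested.

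**Figure D5:**
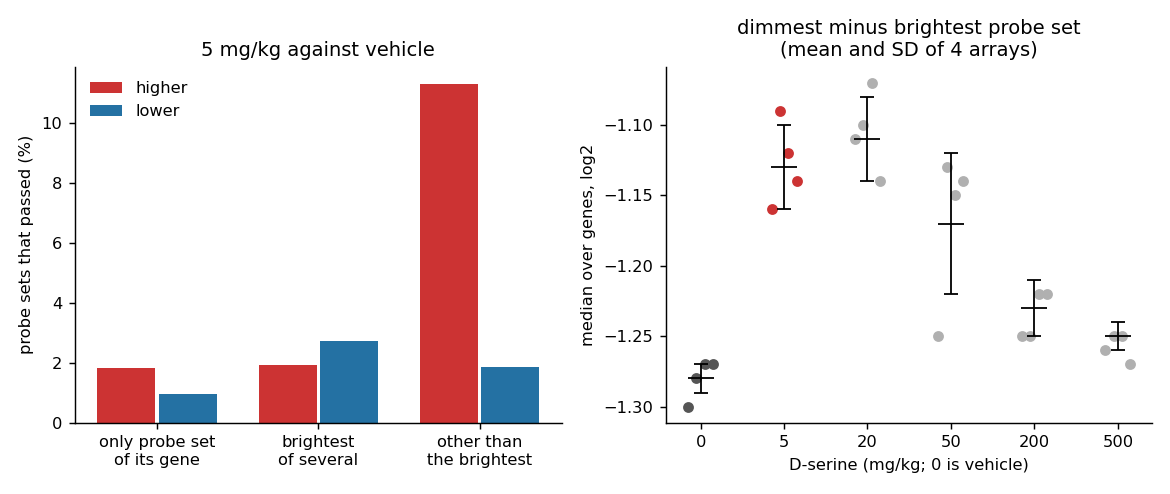
Left, the share of probe sets that passed as higher or lower at 5 mg/kg than in vehicle, by their place within the gene; right, the median over 2624 genes of the dimmest minus the brightest probe set on each array, by dose, with the mean and SD of 4 arrays. Dimmer probe sets were higher in 11.3% of cases against 1.81% and 1.91%, and the 5 mg/kg arrays (-1.16 to -1.09) lie above all vehicle arrays (-1.30 to -1.27).

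At the level of genes, 513 of the 2624 had at least 1 probe set that passed. In 15 all of them passed in 1 direction, in 491 only some did, and in 7 they passed in opposite directions; 392 genes passed only through a dimmer probe set and are not among the 331. Of the 171 other probe sets of the 121 genes whose brightest passed, 131 had the same sign and 26 passed the same way. Among all 3459 dimmer probe sets, 11.3% were higher and 1.85% lower, whatever their brightest did. Whether the 171 exceed these shares was not tested. Kif5c showed the widest opposition: its brightest probe set fell by 0.65, while a dimmer one rose from 6.61, 6.41, 6.26 and 6.06 to 7.12, 7.56, 7.60 and 7.45 (1.10, adjusted p = 0.000368 in limma), and a further one was at -0.33. Gnb1 rose by 0.73 and 0.36 in 2 probe sets and fell by 0.87 in the other, from 10.41, 10.21, 10.39 and 10.05 to 9.71, 9.43, 9.12 and 9.31. The other 5 such genes were Eprs1, Lrrc4b, Naa15, Rsrp1 and Wasl. Wide gaps between the brightest and the dimmest probe set, chosen after their values were seen, were in Vps41, of lysosomal traffic (0.22 and 1.97), Prkacb, a catalytic subunit of protein kinase A (0.21 and 1.69), and Atp1b2, a sodium pump subunit of glia (-0.27 and 1.41). Where on the transcript each probe set lies was not analysed here.

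Shares of calls also varied with annotation and brightness, which was not tested. Of 13664 with 1 symbol, 4.22% were higher and 1.52% lower; of 4646 with none, 2.09% and 2.43%; of 315 with several, 9.84% and 0.635%. The median difference of those with none was -0.06. In 5 classes of equal size by mean level, from dim to bright, the share lower went from 0.698% through 1.48%, 1.42% and 2.17% to 2.90%, and the share higher from 2.26% to 4.40%.

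Promoters of the genes that passed were searched for the cAMP response element, since NMDA receptor calcium signals act in part through CREB, which binds it. Windows from upstream of the start to shortly after it, from RefSeq (GRCr8), were at hand for 157 of the 187 genes that rose and 116 of the 144 that fell. The full palindrome TGACGTCA, searched on both strands, was in 8 promoters of genes that rose (5.1%) and 6 of genes that fell (5.17%), against 3.35% of 8511 promoters of the genes tested and 1.91% of all 27457. No test was made of these shares. The E-box CACGTG, bound by clock and MYC-family factors, was in 11.5%, 6.03%, 9.59% and 6.65% of these sets, the ETS element CCGGAAGT in 7.64%, 3.45%, 8.37% and 4.01%, and the palindromic NRF1 element in 2.55%, 0.862%, 1.96% and 0.932%. Each motif was searched by itself, with overlaps between motifs allowed. Among the holders of the cAMP response element were Fscn1 and Sh3gl2, which rose, Kif5c, whose probe sets went both ways, and Jund, which fell. The windows of 3 of them follow, in the gene's direction, with the element in capitals. They show where it lies before the start in Fscn1, Sh3gl2 and Kif5c.
Fscn1 (minus strand, chr12:16723685-16723984): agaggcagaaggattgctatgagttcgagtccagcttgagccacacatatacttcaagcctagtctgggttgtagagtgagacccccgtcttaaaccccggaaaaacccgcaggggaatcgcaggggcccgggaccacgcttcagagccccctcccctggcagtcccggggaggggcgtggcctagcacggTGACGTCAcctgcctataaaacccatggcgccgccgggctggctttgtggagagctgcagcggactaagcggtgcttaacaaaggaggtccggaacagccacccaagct
Sh3gl2 (plus strand, chr5:104699020-104699319): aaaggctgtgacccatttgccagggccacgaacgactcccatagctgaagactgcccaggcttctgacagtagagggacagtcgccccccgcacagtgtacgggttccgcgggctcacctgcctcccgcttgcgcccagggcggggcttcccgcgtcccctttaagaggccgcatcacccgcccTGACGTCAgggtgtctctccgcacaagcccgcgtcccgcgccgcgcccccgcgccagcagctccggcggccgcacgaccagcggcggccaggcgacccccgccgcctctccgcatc
Kif5c (plus strand, chr3:54441057-54441356): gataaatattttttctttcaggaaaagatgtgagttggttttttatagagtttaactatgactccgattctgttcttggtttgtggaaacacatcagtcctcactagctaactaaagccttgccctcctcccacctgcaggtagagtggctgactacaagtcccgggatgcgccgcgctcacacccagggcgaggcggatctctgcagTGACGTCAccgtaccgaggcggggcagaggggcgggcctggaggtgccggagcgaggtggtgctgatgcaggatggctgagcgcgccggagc

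Direct comparisons set 5 mg/kg against each other dose; vehicle arrays entered only the normalization and the shared spread. Between 5 and 20 mg/kg 0 probe sets passed in limma (397 at an unadjusted p under 0.05), and between 5 and 50 mg/kg 0 passed as well (824 unadjusted). Between 5 and 200 mg/kg 119 passed (0.639%), 100 of them higher at 5 mg/kg, and between 5 and 500 mg/kg 739 (3.97%), 494 of them higher; without 500 mg/kg replicate 4 these counts were 291 and 354. Gene by gene, Faim2 had mean log2 levels of 8.58 ± 0.09 (SD, n = 4) in vehicle and 9.37 ± 0.23, 9.42 ± 0.09, 9.16 ± 0.20, 8.84 ± 0.12 and 8.72 ± 0.14 from 5 to 500 mg/kg. It was higher at 5 than at 200 and 500 mg/kg, by 0.53 and 0.65 (limma, adjusted p = 0.0233 and 0.00174). Eef1a2 had 9.83 ± 0.12 in vehicle and 10.46 ± 0.20, 10.38 ± 0.11, 10.21 ± 0.10, 9.94 ± 0.13 and 9.82 ± 0.10, and was higher at 5 than at 200 and 500 mg/kg by 0.53 and 0.64 (adjusted p = 0.0106 and 0.000645). Septin11, Clta and the brightest probe set of Gnb1 were likewise higher at 5 than at 200 and 500 mg/kg. All of these genes were named because they rose against vehicle on the same 5 mg/kg arrays. Of 2 genes that fell against vehicle, Srrm2, at 10.70 ± 0.06 for 5 mg/kg, was 0.24 below 200 mg/kg (10.94 ± 0.16) and 0.30 below 500 mg/kg (11.01 ± 0.22), and neither passed (adjusted p = 0.453 and 0.125 in limma). Xiap stood at 8.22 ± 0.13, 8.30 ± 0.07, 8.42 ± 0.15, 8.28 ± 0.08 and 8.32 ± 0.05 from 5 to 500 mg/kg, with no direct difference that passed. The mean log2 3' to 5' ratio of beta-actin was 1.63, 1.86, 2.43 and 2.46 from 20 to 500 mg/kg, and that of Gapdh 0.19, 0.31, 0.56 and 0.77, beside 1.70 and 0.18 at 5 mg/kg and 2.50 and 0.77 in vehicle; their part in these comparisons was not tested.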

How the data were processed

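The deposited values are linear intensity signals. GCOS, the Affymetrix software, produced them according to the tools that the submitters' processing notes list; version, settings and scaling: not given in the sources used here. All 24 arrays were quantile normalized and taken as log2(intensity + 16), which understates changes where signals are low. Controls and the dimmest 40% by mean were left out. Symbols came from the platform annotation, updated through RefSeq (GRCr8) by Entrez ID for 20764 probe sets. A gene is its brightest probe set with 1 symbol. Group means were fitted in limma 3.58.1 (R 4.3.3) with an intensity trend, with Benjamini-Hochberg adjustment over all probe sets kept; errors of differences are standard errors of the fit. Control ratios were compared by exact permutation tests (Python 3.11.15).

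Members and 62 gene lists were chosen with earlier results of these data known, so list counts are descriptions without a test. Named genes are places 13 to 24 by size in each direction, the 8 smallest p and 6 brightest in each direction, up to 4 members of each list, genes with opposed probe sets, 13 genes of D-serine handling, NMDA receptors, glia, choroid plexus and blood, and, where a result turned on them, larger changes. 0 pairs of arrays held identical values. The limma step was tested on simulated data. The number of arrays limits the precision. Alternatives were other filters, pseudocounts of 1 and 64, median centring, the deposited scale, array weights, other moderation, 1 probe set per gene, the 8 arrays alone, control ratios as covariates and leaving out each array; reading gene lists without vehicle replicate 2, and probe sets of one gene under other scalings, was chosen after seeing the data. No scan or labelling batch was at hand, so none could be tested.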

Additional observations from a re-analysis of the deposited data

Results flagged for a closer look

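In 298 groups of 4 arrays, each a gene's or a marker list's log2 levels in 1 group, 20 had 1 array apart from the other 3 by the criterion used, the gap to the nearest array as a share of the group's range. Chance gives about 1 in 20 groups.

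Some lay in vehicle. Replicate 2 was high for Slc17a6 (10.33 against 7.30 to 7.44), for the mean of thalamic markers (8.96 against 7.01 to 7.23) and of reactive astrocyte markers (8.31 against 7.98 to 8.03), and low for Col15a1 (6.45 against 7.12 to 7.25). Replicate 3 was high for Syt11 (7.49 against 6.79 to 6.87), Lin7c (6.04 against 5.79 to 5.83) and Tpi1 (11.56 against 11.39 to 11.40), and low for Ston2 (6.55 against 7.27 to 7.33) and Kcnj9 (4.84 against 5.95 to 6.04). Replicate 4 was high for Dlg2 (6.16 against 5.80 to 5.85) and for the mean of striatal markers (9.33 against 8.02 to 8.15), and low for Gabbr2 (9.97 against 10.27 to 10.33) and Mapt (11.35 against 11.39 to 11.40). Replicate 1 was high for Med1 (8.53 against 8.16 to 8.21).

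Others lay at 5 mg/kg. Replicate 1 was high for Cyc1 (10.63 against 10.56 to 10.57) and low for Ireb2 (6.23 against 6.93 to 7.03), an iron-responsive RNA-binding protein, and Tmed5 (5.89 against 5.96 to 5.98), of the secretory pathway. Replicate 2 was low for Slco1a4, a transporter of the blood-brain barrier (9.27 against 9.43 to 9.46). Replicate 3 was high for Grin1 (9.27 against 8.98 to 9.02), and replicate 4 for Dlg2 (6.83 against 6.42 to 6.49).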

How the results depend on the processing

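The direction of the actin and Gapdh ratios held in every fit with 1 array left out (-0.87 to -0.73 and -0.62 to -0.55; hexokinase -0.42 to -0.15), each with an exact p of 0.0286 for actin and Gapdh, the smallest that 4 against 3 arrays allow; hexokinase was -0.61 with no pseudocount. With 1 array left out, the probe sets that passed in limma ranged from 592 to 1668 (higher 428 to 1038, lower 132 to 630), genes that rose from 98 to 347 and genes that fell from 65 to 271; the highest counts came without 500 mg/kg replicate 4, and the causes were not tested. The direct comparison with 200 mg/kg then gave 291 and that with 500 mg/kg 354, and higher calls among dimmer probe sets ranged from 256, without 5 mg/kg replicate 3, to 499, without 500 mg/kg replicate 4. Median centring gave 141 lower probe sets, with 308 genes that rose and 47 that fell, and the values as deposited gave 10, 338 and 3, with a dimmest-minus-brightest difference of 0.10 instead of 0.15. Array weights gave 1673 (618 lower; 346 rose, 274 fell, and 804 against 200 mg/kg), no filter 94 genes that fell, and adjustment over 1 probe set per gene 119 and 83. Covariate fits (Gapdh ratio, Gapdh ratio without 500 mg/kg replicate 4, actin ratio) gave 0 throughout: 0 probe sets passed in limma in either direction (966, 1095 and 1498 at an unadjusted p under 0.05), 0 genes rose or fell and 0 dimmer probe sets were higher. Signs turned with the values as deposited for Grina (0.00), Camk2b (0.06), Ndufb9 (0.05) and Lrrc4b (0.03). They turned with the Gapdh ratio for Grina (0.02), Grm7 (-0.25), Rasgrp1 (-0.14), Syt1 (-0.41), Eno1 (-0.01), Atp6v0e2 (-0.01), Psmb1 (-0.06), Camta1 (0.12), Kpna1 (-0.01) and Rsrp1 (0.06). With 500 mg/kg replicate 4 also left out they turned for Grm7 (-0.10), Syt1 (-0.01), Psmb1 (-0.06), Camta1 (0.02) and Rsrp1 (0.01). With the actin ratio they turned for Grm7 (-0.14), Rasgrp1 (-0.06), Jund (0.04), Hnrnpu (0.02), Kmt2e (0.08) and Camta1 (0.34). No paired analysis was possible because each array is a different rat and replicate numbers are only names. Dim probe sets are limited by signal over background.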
